A study of Mus musculus with 4 samples.

Results

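Efnb2 encodes ephrin-B2, a transmembrane ligand of Eph receptors and a marker of arterial endothelium. This account concerns the 8 chromatin accessibility peaks that the authors' deposited table assigns to Efnb2, out of 6891 peaks listed in all. The members are all rows that name Efnb2 as the gene in that table's own annotation. The gene was chosen by its number of listed peaks, the highest among the 4992 genes with any, in the contrast of knockout and control, so the number of peaks, their direction and their levels are descriptions and carry no new test. Frmd4b, Rasgef1b and Zfp462 come next with 7 listed peaks each, and the median gene has 1.

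Ephrin-B2 sits in the endothelial membrane and binds Eph receptors on neighbouring cells, above all EphB4, which marks veins. Binding signals into both cells, forward through the receptor and in reverse through the ligand's cytoplasmic tail. Reverse signalling promotes the uptake of VEGF receptors from the cell surface during sprouting, and Notch activity raises Efnb2 expression in arterial endothelium.

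The study measured accessibility by ATAC-seq, where open DNA is cut and tagged by a transposase, in endothelial cells (EC in the labels) taken from mouse retinas at P7, postnatal day 7. Knockout pups have the genotype Pdgf{beta}CreERT2pos Rnf20p/p. Their tamoxifen-inducible Cre recombinase, driven by Pdgfb regulatory sequence, is meant to delete floxed Rnf20, a gene for a histone H2B ubiquitin ligase, in endothelium. Control pups are Pdgf{beta}CreERT2neg Rnf20p/p, so they carry the same Rnf20 alleles without Cre. The strain label of both groups gives C57BL/6, the transgene Tg(Pdgfb-icre/ERT2) and the allele Rnf20tm1a(EUCOMM)Wtsi, and the treatment protocol gives 75 µg of (Z)-4-HO-Tamoxifen daily from P1 to P4 without setting the groups apart. The controls therefore have no Cre activity to match that of the knockout. Cells were captured with CD31-coupled beads, and the sources used here do not say whether retinas were pooled. In such bulk material, a different mix of captured cells and different chromatin within the cells cannot be told apart.

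Of the 4 libraries in the labels, 1 knockout and 1 control have a title and genotype that match, and 2 have a title that names the other group. The authors' deposited table holds 1 mean per group and peak, on a log2 scale, with no value per library, so no spread between replicates can be given. It does not say which libraries entered each mean, and the sequencing depth is unknown here. Group names below are those of the table's columns. Rnf20 has no listed peak, so the table offers no check of its deletion. The table lists only peaks with an unadjusted p of at most 0.0499, so a gene or site missing from it is one where no such peak was listed, not one without open chromatin.

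Efnb2 lies on chromosome 8 from 8617235 to 8661242 (mm10, RefSeq GRCm38.p6) and is read from high to low coordinates, so its transcription start site (TSS) is at 8661242. The distances in the authors' deposited table are counted from that base to each peak's centre, and positive values are downstream. The 250 bases before the TSS, 8661243 to 8661492 on the minus strand, are shown from RefSeq because every distance below is measured from their end. No listed peak overlapped them, and 0 lay within 10 kb of the TSS. Capitals mark the only match to the 8 short motifs searched on both strands.
Efnb2 promoter: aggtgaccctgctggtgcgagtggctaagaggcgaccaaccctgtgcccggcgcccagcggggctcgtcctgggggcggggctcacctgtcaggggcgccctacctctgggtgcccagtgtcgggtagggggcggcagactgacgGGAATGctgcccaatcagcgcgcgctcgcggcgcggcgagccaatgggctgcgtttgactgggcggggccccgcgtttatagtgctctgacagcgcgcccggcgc

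The stretch was 72.0% G and C, against a median of 52.4% over 32851 RefSeq promoters cut to the same length. It held 27 CG dinucleotides, against a median of 6. The match is the TEAD motif GGAATG, which 12.6% of those promoters hold. No match was found for the ETS motif AGGAAG, held by 29.5% of promoters, or for TGGGAA of RBPJ, the Notch transcription factor, held by 21.6%. The forkhead motif TGTTTAC (in 3.2%), the SOX motif ATTGTT (in 9.4%) and the GATA motif AGATAA (in 10%) were not matched either. The same held for AP-1, searched as TGA and TCA around any base (in 6.7%), and for CTTTGAT of TCF/LEF (in 3.2%). No searched motif overlaps another in the window. That these letters are missing from this window says nothing about the factors.

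The 8 peaks fell into 2 kinds. Of these, 7 were intergenic, between 172180 and 696044 bases downstream of the TSS, and all 7 had a higher mean in knockout cells. The remaining peak lay in intron 1 of Efnb2 and had a lower mean in knockout cells. That makes 7 of 8 with a positive fold, beside 62.1% of all listed peaks. The count rests on the authors' assignment: with every RefSeq gene start counted, noncoding genes and pseudogenes included, Efnb2 is nearest to the intron peak alone, which leaves 0 of 1 positive and a median fold of -1.14. None of the 8 reached FDR < 0.05 in the authors' deposited table, beside 3.02% of all listed peaks that did. At FDR < 0.1 there was 1, beside 7.89% of all listed peaks, and at FDR < 0.25 still 1, beside 28.8%. All 8 are at unadjusted p < 0.05 because every listed peak is. The statements on single peaks below are therefore about group means whose difference did not pass multiple testing.

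**Figure D1:**
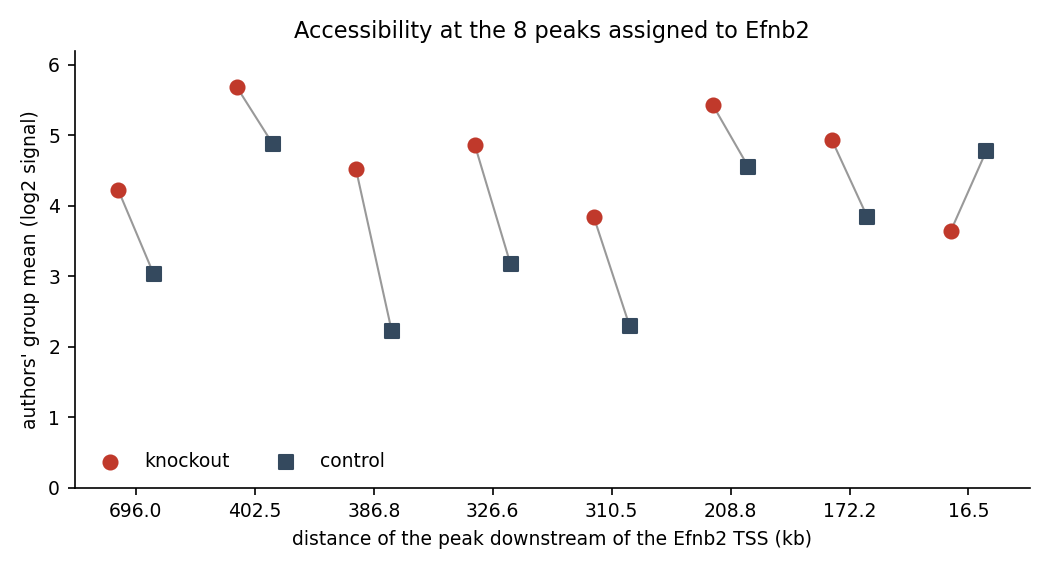
Group means in the authors' deposited table (vertical axis, log2 signal) at the 8 Efnb2 peaks, ordered by distance downstream of the TSS (horizontal axis, kb); circles are knockout and squares control, and no error is available. The knockout mean is above the control mean at the 7 peaks from 696044 to 172180 bases, and below it at the peak 16512 bases away.

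The intergenic peak with the largest difference spanned 8274195 to 8274602, 386843 bases from the TSS. Its log2 level in the authors' deposited table was 4.52 in knockout and 2.23 in control. The log2 fold of 2.29, a 4.89-fold higher signal, had an unadjusted p of 0.000228 and FDR 0.0599, the 291st smallest p of the table. Among all listed peaks with a positive fold, 87.6% had a smaller one. This peak came closest of the 8 to the FDR threshold.

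Next in size was the peak from 8334400 to 8334888, 326598 bases from the TSS. There the authors' deposited table gives 4.86 in knockout and 3.17 in control, with 1.69 as log2 fold at p = 0.00792 and FDR 0.27. Its neighbour 15733 bases away, from 8350621 to 8350813, stood at 3.84 in knockout and 2.30 in control in the authors' deposited table (fold 1.54, FDR 0.463). This is the narrowest peak of the 8, at 192 bases, and had the lowest mean signal. Together with the peak described first, these 3 lie within 77 kb of each other and have the 3 largest folds of the gene.

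The farthest peak, from 7964985 to 7965410, lay 696044 bases from the TSS and 292832 bases from the next listed one. In the authors' deposited table it had a log2 level of 4.23 in knockout and 3.03 in control (fold 1.20, FDR 0.401). Its fold is the median of the 7 intergenic ones, equal to a 2.30-fold higher signal. The listed peak before it on the chromosome is 3376391 bases away, so the row of Efnb2 peaks begins after a long stretch with no listed peak. For this farthest peak, the nearest start of a curated RefSeq transcript is that of Gm17215, 584249 bases away, and not that of Efnb2.

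The remaining 3 intergenic peaks had the highest levels and the smallest folds. The one from 8258242 to 8259162 was the widest, at 920 bases, and had log2 levels of 5.68 in knockout and 4.88 in control (fold 0.80, FDR 0.456 in the authors' deposited table). The peak from 8452151 to 8452633 had 5.43 in knockout and 4.55 in control (fold 0.88, FDR 0.438 in the authors' deposited table). It overlaps Gm31135, a long noncoding RNA gene of RefSeq, although the authors' annotation calls it intergenic, and its centre is 2440 bases from an end of the pseudogene Gm2448. The peak nearest to the gene on this side, from 8488851 to 8489273, ends 127962 bases short of the 3′ end of Efnb2 and lies 4334 bases from the start of Gm31135. It had 4.94 in knockout and 3.84 in control (fold 1.09, FDR 0.496 in the authors' deposited table).

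The intron peak, from 8644515 to 8644945, lay 16512 bases inside the gene. Its log2 level in the authors' deposited table was 3.64 in knockout and 4.78 in control, so the fold was -1.14 at p = 0.0485 and FDR 0.537. Its signal in knockout cells was thus 0.45 times that in control cells. It is the weakest in evidence of the 8, with the 6772nd smallest p of 6891, and sits just inside the table's p threshold. It is separated from the nearest intergenic peak of the gene by 155242 bases.

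Across the 7 intergenic peaks, knockout levels spread over 1.84 log2 units, from 3.84 to 5.68, and control levels over 2.65, from 2.23 to 4.88, in the authors' deposited table. The ranges of the groups overlap, so the difference is one within each peak and not a separation of levels. Median levels were 4.86 in knockout and 3.17 in control. The signal was 1.74 to 4.89 times that of control in knockout cells, and the 4 peaks with the lowest control levels had the 4 largest folds. The sources used here do not give the scaling of these levels or say whether they are per length. Divided by width, the mean linear signal per 100 bases ranged from 3.17 at the farthest peak to 6.92 at the peak in Gm31135.

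A relation of this kind was also seen among the listed intergenic peaks with positive fold at control levels from 2 to 5. Of these, 449 had a control level from 2 to 3 and a median fold of 1.49 in the authors' deposited table. The 2 Efnb2 peaks in that range had 2.29 and 1.54. At control levels from 3 to 4 the median over 447 peaks was 1.20, against a range of 1.09 to 1.69 for 3 Efnb2 peaks. At levels from 4 to 5 the median over 409 peaks was 0.95, against 0.80 and 0.88 for the other 2. Of the 7, the peak at 386843 bases and the one at 326598 bases exceeded the 90th percentile for their level (1.91 and 1.55). The smallest folds listed also fell along this order, with 10th percentiles of 1.22, 0.94 and 0.77, in a table that holds only peaks past its p threshold. The control level is also a term of the fold, which is knockout minus control, so a falling relation is partly built in. Neither the part of that term nor the part of the threshold was tested.

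**Figure D2:**
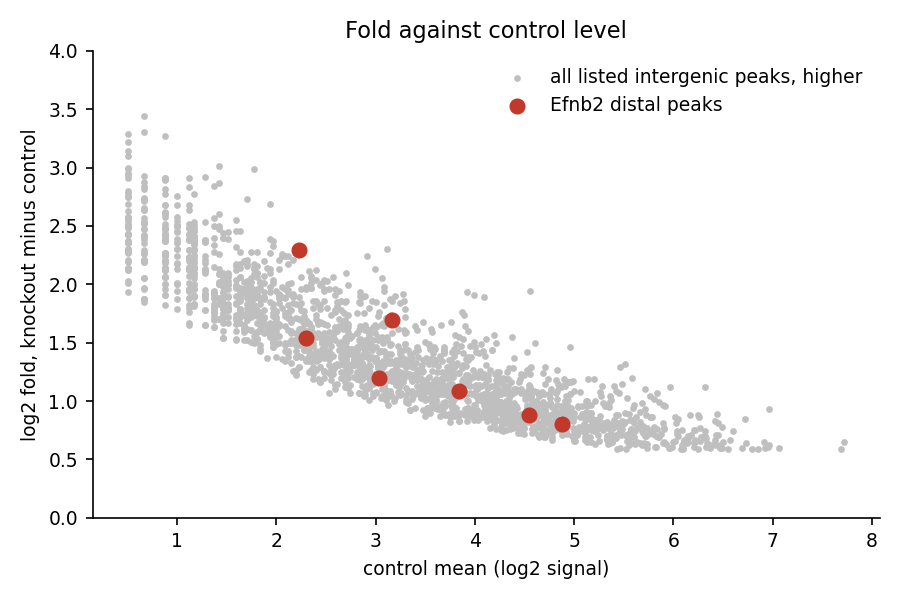
Log2 fold, knockout minus control (vertical axis), against the control mean in log2 signal (horizontal axis) in the authors' deposited table. Grey points are all listed intergenic peaks with positive fold and a control mean above 0, and red points the 7 distal Efnb2 peaks, whose folds run from 2.29 at a control level of 2.23 down to 0.80 at 4.88.

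By their medians, Efnb2 peaks were wider and stronger than the typical listed peak. Their median width was 427.5 bases, against 269 over all listed peaks, and their median of mean log2 signal 4.285, against 3.74, in the authors' deposited table. This did not hold at every peak. At the peak 310525 bases away, 29.1% of listed peaks had the same or a smaller width and 34.4% the same or a lower mean. For the means of the peaks at 696044 and 386843 bases, that share was 50.5% and 51.9%. The median fold of the 8 Efnb2 peaks was 1.145, against 0.93 over all listed peaks. The 7 intergenic peaks had a median fold of 1.20, which is below the median of 1.62 over listed intergenic peaks with positive fold at 172180 to 696044 bases from a TSS; with negative folds included, that set had a median of 1.34. The median distance of all 8 peaks to the TSS was 318561.5 bases, against 23614.5 over all listed peaks. The levels of the intergenic Efnb2 peaks lie above those of the listed distant peaks with positive folds, by their medians. The 7 Efnb2 peaks are themselves part of that distant set. That same set of listed intergenic peaks with positive fold had a median level of 4.13 in knockout and 2.59 in control in the authors' deposited table, beside the medians of 4.86 and 3.17 at Efnb2. None of these differences was tested.

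The direction of the distal peaks is the common one at that range. Of the 720 listed intergenic peaks beyond 100 kb of a TSS, 81.2% had positive folds, and of the 370 at the distances of the Efnb2 peaks, 82.2% did. With 7 of 7, Efnb2 is near that background, and nothing particular to the gene is read from the direction. The intron peak is on the less common side of its class, since 56.7% of the 1293 listed intron peaks at 10 to 50 kb had positive folds. Over all listed peaks, the share with positive folds was 46.2% within 10 kb of a TSS, 63.9% at 10 to 50 kb, 82.9% at 200 to 400 kb and 78.0% at 400 to 800 kb. The Efnb2 peaks, with 0 of 1 positive within 50 kb and 7 of 7 beyond 100 kb, are too few to show such an order on their own.

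**Figure D3:**
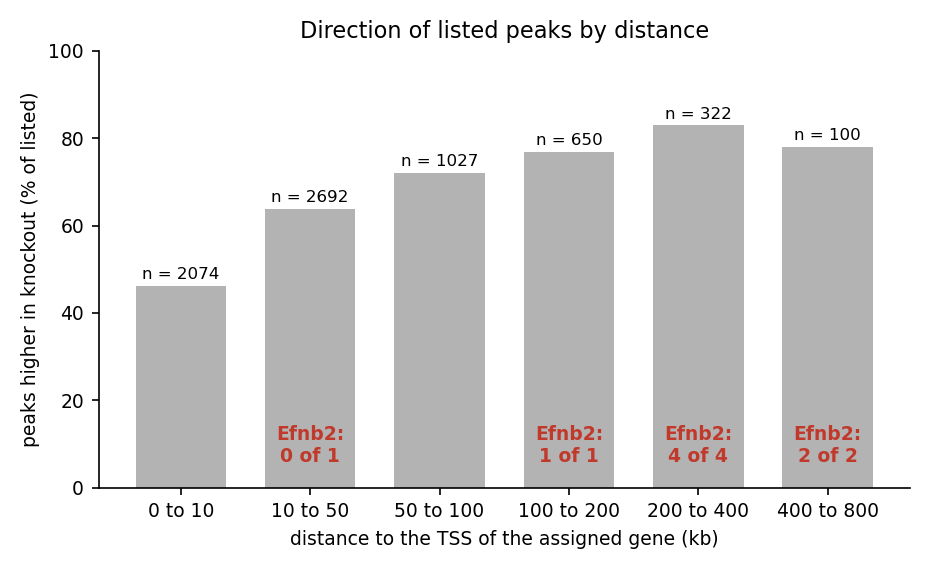
Share of listed peaks with a higher mean in knockout (vertical axis, percent) by distance to the TSS of the assigned gene (horizontal axis, kb); bars are all listed peaks with their number, and red text counts the Efnb2 peaks. The bars climb from 46.2% within 10 kb to 82.9% at 200 to 400 kb and stand at 78.0% at 400 to 800 kb, and Efnb2 has 0 of 1 at 10 to 50 kb and 7 of 7 beyond 100 kb.

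Other genes share the stretch. Within 1 Mb of the Efnb2 TSS the table lists 13 peaks, and the intron peak of Efnb2 is the 1 with a negative fold. The 5 peaks not assigned to Efnb2, 4 intergenic and 1 in an intron, all lie on the upstream side. Arglu1, a neighbouring gene that encodes an arginine- and glutamate-rich nuclear protein, has 3 of them. The one from 8797385 to 8797664 was higher in knockout, with 4.72 in knockout and 2.72 in control (fold 1.99, FDR 0.039 in the authors' deposited table). It is the only peak of the window at FDR < 0.05, and at 136282.5 bases upstream of the Efnb2 TSS it is closer to that TSS than any of the 7 intergenic peaks assigned to Efnb2. It lies 106988 bases from the Arglu1 TSS. The other Arglu1 peaks had folds of 2.40 at FDR 0.079 and, for the second, 0.95 at FDR 0.386 in the authors' deposited table.

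Farther upstream, a peak assigned to the noncoding gene 4933430N04Rik had a fold of 1.10 (FDR 0.289 in the authors' deposited table). The peak of 4930453L07Rik lay in an intron of Fam155a and had a fold of 1.94 (FDR 0.201 in the authors' deposited table). The row of 7 positive folds on the downstream side was followed, after the intron peak, by a row of 6 that begins on the upstream side. Rows of at least 7 positive folds in sequence occur 130 times among the 1429 rows of positive folds in the table, the longest having 20. The 7 peaks span 524288 bases, and 5.8% of listed peaks start a span of that length with at least 7 listed peaks, where the median is 3. Rows as long and stretches as dense are therefore found elsewhere in the table.

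**Figure D4:**
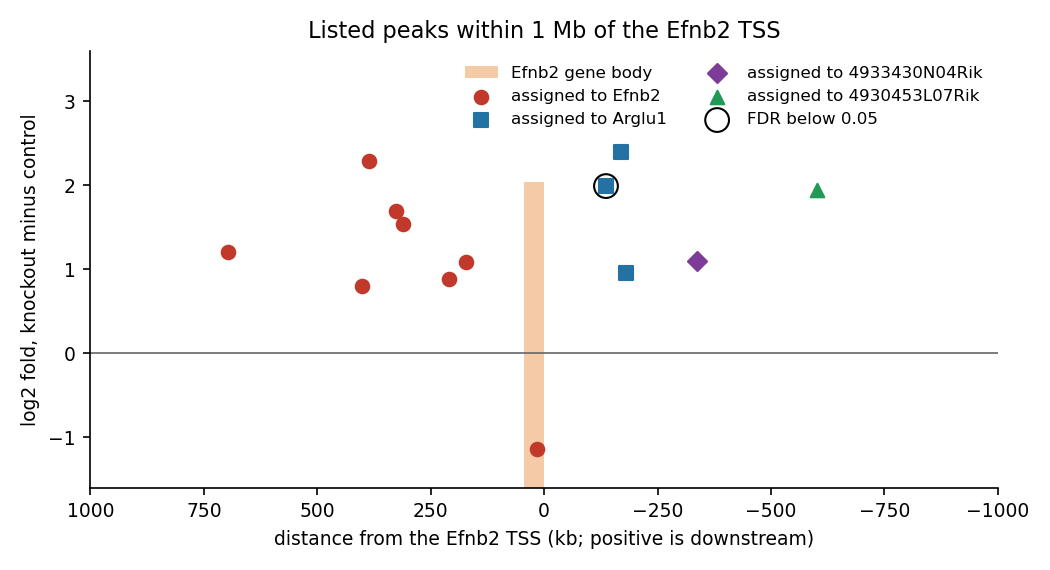
Log2 fold, knockout minus control (vertical axis), of the 13 listed peaks within 1 Mb of the Efnb2 TSS in the authors' deposited table, by distance from it (horizontal axis, kb, downstream to the left). Colour and shape give the assigned gene, the band the Efnb2 gene body, and the ring the Arglu1 peak at FDR 0.039; 12 peaks lie above 0 and the Efnb2 intron peak at -1.14.

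The 5 genes most like Efnb2 were picked for distant peaks with positive folds, so their values below are a description. They were ranked among the 46 genes with at least 5 listed peaks by share of positive folds, share of intergenic peaks, median distance and median fold, each divided by its SD over those genes. In order they were the noncoding gene 1700061F12Rik (likeness distance 0.61, where 0 is identity), the microRNA gene Mir12205 (0.63), Marcks, which encodes an actin-binding substrate of protein kinase C (0.68), 4930529K09Rik (0.72) and 1500009L16Rik (0.95). Folds were positive at all 6 peaks of Marcks, with a median of 1.06 and a smallest FDR of 0.15 in the authors' deposited table. At 4930529K09Rik all 6 were positive, with a median of 1.405 and 1 peak at FDR 0.0127 in the authors' deposited table. At 1700061F12Rik all 6 were positive as well, with a median distance of 342195 bases and 1 peak at FDR 0.0441 in the authors' deposited table. Mir12205 had 5 positive folds of 5 (smallest FDR 0.19), and 1500009L16Rik had 4 positive and 1 negative (smallest FDR 0.13), in the authors' deposited table.

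Among 21 other ephrin and Eph receptor genes, 4 had a listed peak, with 4 positive and 2 negative folds and a median of 0.84, beside 62.1% positive and a median of 0.93 over all listed peaks. None of the 6 peaks reached FDR < 0.05, beside 3.02% of all listed peaks, so the count of 0 is near the background. Ephb4, the main receptor of ephrin-B2 in vessels, and Efnb1 and Efnb3, the other ephrin-B ligands, had none. Efna5, a ligand anchored in the membrane by a lipid, had 3 peaks with folds of 0.95, 1.23 and 0.74 (smallest FDR 0.227 in the authors' deposited table), all more than 57 kb from its TSS. The receptor genes Epha4 and Epha5 each had a promoter peak. The Epha4 promoter stood at 4.01 in knockout and 4.86 in control (fold -0.85, FDR 0.47), and the Epha5 promoter at 4.56 in knockout and 3.17 in control (fold 1.39, FDR 0.287), in the authors' deposited table. The receptor gene Epha8 had 1 peak, 44336 bases upstream of it, which stood at 0.89 in knockout and 3.26 in control (fold -2.37, FDR 0.111 in the authors' deposited table). The annotation places this peak in an intron, although it lies upstream of the Epha8 TSS.

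Of 20 genes for partners of ephrin-B2, 6 had listed peaks, 6 positive and 10 negative, with a median of -1.42, beside 62.1% positive and a median of 0.93 over all listed peaks. At FDR < 0.05 there were 0 of 16, beside 3.02% of all listed peaks, and 12 of the 16 peaks belong to Rgs3 and Pard3. Nck2, an adaptor that binds the phosphorylated ephrin-B tail, had an intron peak at 3.88 in knockout and 5.32 in control (fold -1.44, FDR 0.364 in the authors' deposited table). Rgs3, a regulator of G protein signalling that binds the end of the ephrin-B tail, had 6 peaks, 4 positive and 2 negative, from -2.36 (FDR 0.0828) to 1.98 (FDR 0.186) in the authors' deposited table. Pard3, a polarity scaffold that takes part in VEGF receptor uptake, also had 6. Its 3 intron peaks had folds of -2.04, -1.66 and -1.05, and its 3 intergenic peaks 1.48, 1.90 and -1.55, in the authors' deposited table (smallest FDR 0.0968). The VEGF receptor genes Kdr and Flt4, whose products ephrin-B2 helps to internalise, each had 1 intergenic peak within 50 kb with a negative fold (-1.46 and -1.42 in the authors' deposited table). Pdgfrb, a receptor gene of pericytes, had an intron peak at -1.41 (FDR 0.338 in the authors' deposited table).

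Of 22 regulators and markers of arterial identity, 8 had listed peaks, 7 positive and 11 negative, with a median of -0.76, beside the same 62.1% and 0.93 over all listed peaks. At FDR < 0.05 there were 0 of 18, beside 3.02%. Jag1, a Notch ligand gene, resembled Efnb2 in layout, with positive folds at 2 intergenic peaks more than 222 kb away (1.86, FDR 0.0702, and 0.76, FDR 0.515) and a negative one in an exon (-1.29, FDR 0.48, all in the authors' deposited table). That layout was found in 48 of the 222 genes with listed peaks both within 50 kb and beyond 100 kb of their TSS. Cxcr4 and Foxc1, also among those genes, did not have it. Both peaks of Rbpj, which encodes the transcription factor of Notch signalling, were intergenic with positive folds of 2.20 and 1.42 (smallest FDR 0.0916 in the authors' deposited table). Erg, an endothelial ETS factor gene, had 1 intergenic peak at 1.98 (FDR 0.232 in the authors' deposited table). Negative folds were listed in an intron of the receptor gene Notch1 (-1.03, FDR 0.357) and at 4 of 5 intron peaks of the transcription factor gene Mef2c (smallest FDR 0.101 in the authors' deposited table). Both peaks of Sox18, a SOX factor gene of developing vessels, had negative folds (-0.76 and -0.79), as did both of the chemokine receptor gene Cxcr4 (-0.75 and -1.47), in the authors' deposited table. Foxc1 had 1 of each sign (1.42 and -0.63 in the authors' deposited table). The annotation places both in introns of the same transcript, 15718 and 212446 bases downstream of the Foxc1 TSS. Dll4, Hey1, Hey2, Sox17, Gja4, Gja5, Nrp1 and the venous regulator Nr2f2 had no listed peak.

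**Figure D5:**
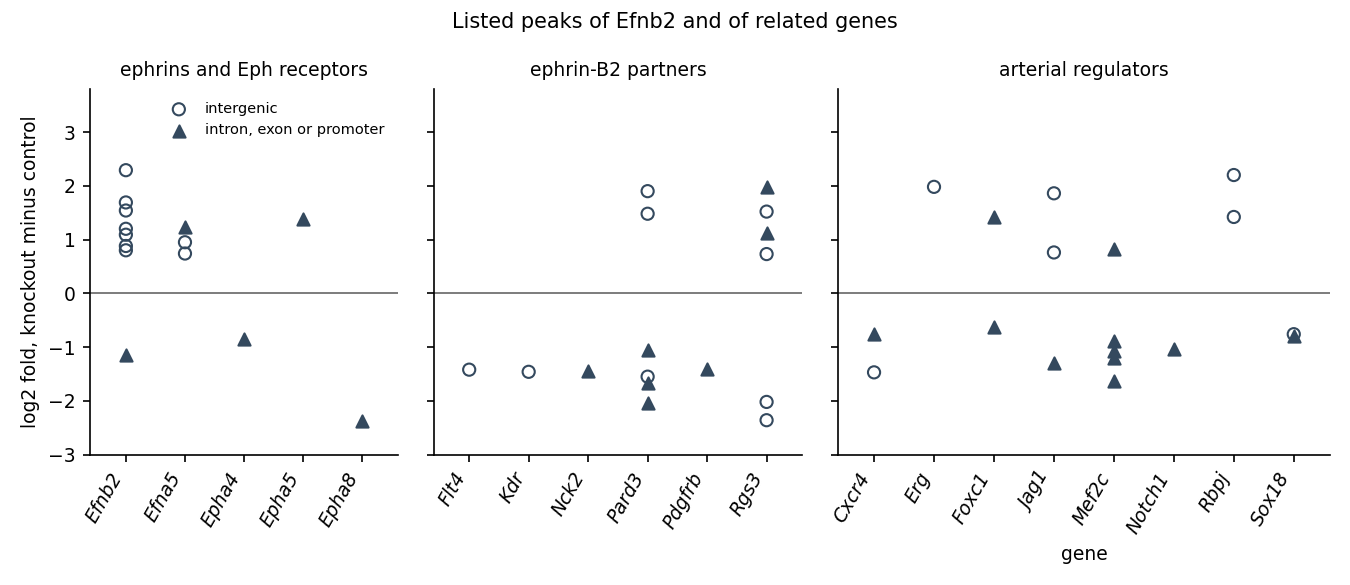
Log2 fold, knockout minus control (vertical axis), of every listed peak of genes in 3 lists (panels, with genes on the horizontal axis) in the authors' deposited table. Circles are intergenic peaks and triangles peaks annotated to introns, exons or promoters of any transcript, not always one of the gene named. Efnb2, at the left, has 7 positive folds and 1 negative. The partner list has 6 and 10, and the arterial list 7 and 11. The lists were not matched to Efnb2 for distance to the TSS, with which the share of positive folds differs over all listed peaks.

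Endothelial and other cell type markers give little to check the captured cells by, since unchanged open chromatin is not listed. Of 9 endothelial marker genes, 4 had listed peaks, with 5 positive and 2 negative folds, beside 62.1% positive over all listed peaks. Of these 7 peaks, 0 reached FDR < 0.05, beside 3.02% of all listed peaks. Lists for 8 other retinal cell types together held 20 listed peaks, from 0 for astrocytes to 8 for bipolar cells, and 0 of the 20 reached FDR < 0.05, beside 3.02% of all listed peaks. Positive and negative folds stood at 11 and 9 over these lists, beside 62.1% positive over all listed peaks. The part of cell mixture in the Efnb2 values was not tested.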

How the data were processed

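ATAC-seq libraries were made from retinal endothelial cells at P7. The authors deposited 1 table of peaks, as text and as a workbook sheet whose numbers were equal in all 6891 rows; the sheet was used. The group means and fold are deposited log2 values, and the p-value and FDR are also deposited. Per the submitters' processing notes the build is mm10 and the tools named are DiffBind, edgeR, MACS2, ChIPseeker, Bowtie2, Trimmomatic 0.36, Picard 1.119, SAMtools and deepTools, with no role stated. How peaks were filtered, reads shifted and signal scaled is not stated there. Fold equalled knockout minus control within 0.01, and the listed mean equalled the log2 of the average linear group level within 0.0095.

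From these values, shares, medians, gaps, runs and distances were computed with Python 3.11.15 and pandas 2.3.3, with functions tested on simulated data. No test was added, because values per library were not used and the gene was chosen from this contrast. RefSeq tables of GRCm38.p6 gave genes and the promoter; no genome was used, so peak sequences are not shown. Named genes are those with a listed peak within 1 Mb of the TSS, those of 3 gene lists, and the 5 most like Efnb2. The members and lists were chosen with earlier results of these data known. Motif matches used the 250 bases before the TSS. Of the listed peaks, 5 had no distance and stayed out of distance counts.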

Additional observations from a re-analysis of the deposited data

How the results depend on the processing

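The number of Efnb2 peaks with positive fold was 7 as assigned. It was 12 of 13 with all listed peaks within 1 Mb of the TSS, 1 of 1 at FDR < 0.25, 2 of 2 at unadjusted p < 0.01, 6 of 7 among peaks whose mean signal was at least the median of the table, and 7 of 8 with both means above the lowest value of their column. The number at FDR < 0.05 was 0, against 1 at FDR < 0.1 and 1 at FDR < 0.25. The number of listed peaks stayed 8 after merging peaks within 10 kb and was 1 at FDR < 0.25, where 187 genes had more.

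These counts depend on which gene starts are used to assign peaks. In restrictions added after seeing the data, 7 of the 8 peaks (6 with positive fold) had Efnb2 as the nearest start of a curated RefSeq transcript. The exception was the farthest peak. With every RefSeq gene counted, noncoding genes and pseudogenes included, 1 peak remained, the intron peak, with 0 positive folds and a median fold of -1.14 against 1.145. The median fold was 1.09 to 1.20 under the other restrictions run on it, and the median distance was the same to the RefSeq start. No paired analysis was possible because the table gives 1 mean per group, and leaving out replicates was not run for the same reason. Neither depth nor the number of Efnb2 peaks below the listing threshold is known from the table.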

Other observations

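The contrast at Efnb2 between the peak near the TSS and the distant ones was set beside other genes after its values were seen, with no test. In the authors' deposited table, 222 genes had listed peaks both within 50 kb and beyond 100 kb of their TSS. The commonest layout was positive folds at all near and all far peaks, in 95 of them. All near peaks had negative and all far peaks positive folds in 48, the opposite layout was found in 23, and 15 had negative folds throughout. Positive folds were more frequent far from a TSS over all listed peaks too, with 63.9% at 10 to 50 kb and 76.9% at 100 to 200 kb, so 48 against 23 is not read as a pattern of its own. Of the 60 genes with at least 2 far peaks, 11 had the layout of Efnb2 and 2 its opposite. Positive folds made up 76.9% of listed peaks at 100 to 200 kb, 82.9% at 200 to 400 kb and 78.0% at 400 to 800 kb. Far peaks that all agree are then more often positive, so 11 against 2 is not read as a pattern either. The 11 were Efnb2, with 7 far peaks, and, with 2 each, Bach2, Btbd3, Cacna1e, Hapln1, Jag1, Pcgf5, Plpp3, Sh3bp4, Tbc1d22a and Zfp521. Bach2 and Zfp521 encode transcription factors, Plpp3 a lipid phosphatase of endothelium, Pcgf5 a Polycomb subunit and Cacna1e a calcium channel subunit.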
